A study of Mus musculus with 12 samples.

Results

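Atf3, Gadd45b and Nfil3 were followed on 12 arrays of mouse hippocampal RNA through every probe set annotated to one of these 3 symbols. These 3 genes, of 8251 with a probe set of a single symbol, had 7 of the 12422 probe sets: 3 for Atf3, 2 for Gadd45b and 2 for Nfil3, each kept apart from the others. The genes were picked from earlier results of the same arrays because their signal was higher with the transgene on. Their differences between induced and uninduced tissue are therefore given as a description, with no test. The VC mice carried VP16-CREB, in which the transcription factor CREB is made constantly active by the VP16 domain, as a transgene that is silent under doxycycline (dox) and switched on by its withdrawal. Whole hippocampus came from VC mice never taken off dox (1 array) and from wild-type mice kept under the same conditions (2 arrays), which together form the never-induced group of 3. It also came from VC mice 1 week (2 arrays), 2 weeks (2 arrays) and 5 weeks (1 array) after dox was withdrawn. A further array held VC mice that were off dox for 3 weeks and then back on it for 2 weeks (reversed). Microdissected CA1, one subfield of the hippocampus, came from VC animals after 3 weeks without dox (2 arrays) and from wild-type mice (1 array). The title of the reversed sample calls it VC and its description calls it wild type, so it stands as a separate group. The sources used here do not give the promoter that drives the transgene, the strain or the age.

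ATF3 is a basic leucine zipper factor of the ATF/CREB family that is scarce in resting tissue and is induced by stress, by nerve injury and by strong synaptic activity. GADD45B belongs to a family of small stress-inducible proteins that bind the kinase MAP3K4 upstream of p38 and JNK, and in the dentate gyrus of mice it is an activity-induced gene that promotes DNA demethylation. NFIL3, also called E4BP4, is a basic leucine zipper repressor that competes with DBP, TEF and HLF for D-box sites in clock-controlled genes, and in injured rat sensory neurons it is a target of CREB that represses other CREB targets. CREB itself binds the cyclic AMP response element (CRE).

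The 250 bases before the annotated start of each gene are shown because the genes were followed together in mice with an activated CREB. All 3 genes were matched in the RefSeq promoter table (GRCm38.p6). Capitals mark a CRE core site (CGTCA) in Atf3 and Nfil3, and an E-box (CACGTG) and a TATA box (TATAAA) in Gadd45b. Each line runs 5′ to 3′ on the gene's own strand.
Atf3, chr1:191183334-191183583, minus strand: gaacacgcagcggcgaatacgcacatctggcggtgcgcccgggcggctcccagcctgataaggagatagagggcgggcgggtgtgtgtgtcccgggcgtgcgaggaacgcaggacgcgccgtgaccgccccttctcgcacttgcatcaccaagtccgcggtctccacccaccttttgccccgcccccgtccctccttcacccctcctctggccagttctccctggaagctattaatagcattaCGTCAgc
Gadd45b, chr10:80929841-80930090, plus strand: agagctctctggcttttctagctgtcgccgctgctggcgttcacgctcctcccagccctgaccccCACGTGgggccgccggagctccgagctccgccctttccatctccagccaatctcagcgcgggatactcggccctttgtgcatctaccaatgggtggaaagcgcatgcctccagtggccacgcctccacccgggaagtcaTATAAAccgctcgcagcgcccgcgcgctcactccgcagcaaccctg
Nfil3, chr13:52981040-52981289, minus strand: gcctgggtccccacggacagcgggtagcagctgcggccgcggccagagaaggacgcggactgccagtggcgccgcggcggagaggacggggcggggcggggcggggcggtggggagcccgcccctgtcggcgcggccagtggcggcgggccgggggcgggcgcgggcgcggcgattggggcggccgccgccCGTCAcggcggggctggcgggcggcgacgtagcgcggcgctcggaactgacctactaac
Both strands were searched for 8 spellings. The CRE core site CGTCA lay 7 to 3 bases before the start of Atf3 and 59 to 55 bases before that of Nfil3, and 17.8% of all 32851 promoters held it within the same length. Gadd45b held none. Its E-box, 185 to 180 bases before the start, is a spelling held by 6.02% of promoters, and its TATA box, 46 to 41 bases before the start, by 12.4%. CCAAT, held by 33.8%, occurred at 2 places in Gadd45b and, on the opposite strand, once in Nfil3. The full CRE TGACGTCA (1.55% of promoters, and where present it also counts as a core site), the AP-1 site TGACTCA (4.46%) and the D-boxes TTATGTAA (0.819%) and TTACGTAA (0.113%) were in none of the 3 windows. The Nfil3 window was 81.6% G and C and those of Atf3 and Gadd45b 65.2% each, against a median of 52.4% over all promoters. A match of letters shows no binding, and these windows leave out distant elements.

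Signal is given as array intensity rescaled so that each array has a trimmed mean of 1000, with values under 65.7 held at that floor for tests. The deposited trimmed mean was 500.3 to 500.4 on wild-type hippocampus array 1 and the CA1 arrays and 3002 on the other 8, before rescaling. Each hippocampal sample pooled 6 to 10 mice, so errors and p-values measure the spread between pools and may be partly technical. Region markers leaned the way of the labels: 4 dentate granule cell genes summed to 2079 to 3411 on the CA1 arrays and to 3084 to 5390 on the hippocampal ones, and the 2 measured CA1 pyramidal genes to 4304 to 5452 in CA1 and 2694 to 4017 in hippocampus. The dentate sums overlapped through the 5-week array, the lowest in hippocampus. In bulk tissue, fewer cells of a type and less RNA per cell cannot be told apart.

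Of the 7 probe sets, 6 passed the filter on dim signal, which kept 7069 of the 12422. The third Atf3 probe set, 161645_r_at, read 13.5 to 22.0 on all 12 arrays, under the floor throughout, and gave no information. The main Atf3 probe set and both Gadd45b probe sets lay above the median of every array. Nfil3 102955_at and Atf3 104156_r_at did so on only 4 arrays each, and Nfil3 101805_f_at on 9. The ending _f_at marks probes that may be shared by related sequences and _r_at probes picked under relaxed rules, so 102779_at and 102955_at are the most specific by design.

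In whole hippocampus Atf3 was higher on every induced array by its brighter probe set, 104155_f_at, with most of the difference from 2 weeks on, and it had the widest late difference of the 3 genes by that probe set. It read 437 in VC on dox and 554 and 546 in wild type before induction, 686 and 719 at 1 week, 1189 and 1304 after 2 weeks and 1383 after 5 weeks. The lowest of the 5 induced arrays was above the highest of the 3 never-induced ones, and the step between 1 and 2 weeks was wider than the spread within either time. The log2 difference from never-induced hippocampus was 0.46 ± 0.23 (SE) after 1 week, 1.29 ± 0.23 after 2 and 1.44 ± 0.30 after 5. At 2 weeks it ranked 29 among the 7069 tested probe sets when ordered from the most positive difference down, and at 5 weeks it ranked 95.

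The second Atf3 probe set, 104156_r_at, which the annotation draws from the same source sequence, did not give an order in hippocampus. It read 94.4 in VC on dox and 332 and 79.9 in wild type, 175 and 164 at 1 week, 49.1 and 371 after 2 weeks and 504 after 5 weeks. The 2-week arrays alone spanned nearly its whole range, one of them under the floor. Its residual SD over the 8 label groups was 1.19 on the log2 scale, against 0.28 for 104155_f_at, and its 2-week difference of 0.20 ± 0.78 became 1.45 without array 1 of that time and -1.05 without array 2. The high value at 5 weeks (difference 1.89 ± 0.99) rests on 1 array.

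Gadd45b was higher from 2 weeks on by both of its probe sets, and not at 1 week. The specific probe set 102779_at read 626 in VC on dox and 652 and 543 in wild type, 567 and 606 at 1 week, 812 and 836 after 2 weeks and 968 after 5 weeks. The 1-week arrays lay inside the never-induced range and the 3 later arrays above it. The other probe set, 161666_f_at, read 799.9 in VC on dox and 605 and 722 in wild type, 557 and 627 at 1 week, 1543 and 1309 after 2 weeks and 1635 after 5 weeks. One of its 1-week arrays lay under the never-induced range, and the 3 later arrays stood apart with a wider gap: the lowest later array was 1.64 times the highest of the other 6 hippocampal arrays, against 1.16 times for 102779_at. Log2 differences from never-induced hippocampus for 102779_at were -0.05 ± 0.15 at 1 week, 0.44 ± 0.15 after 2 weeks and 0.68 ± 0.19 after 5 weeks. For 161666_f_at they were -0.25 ± 0.20, 1.01 ± 0.20 and 1.22 ± 0.25 at the same times.

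**Figure D1:**
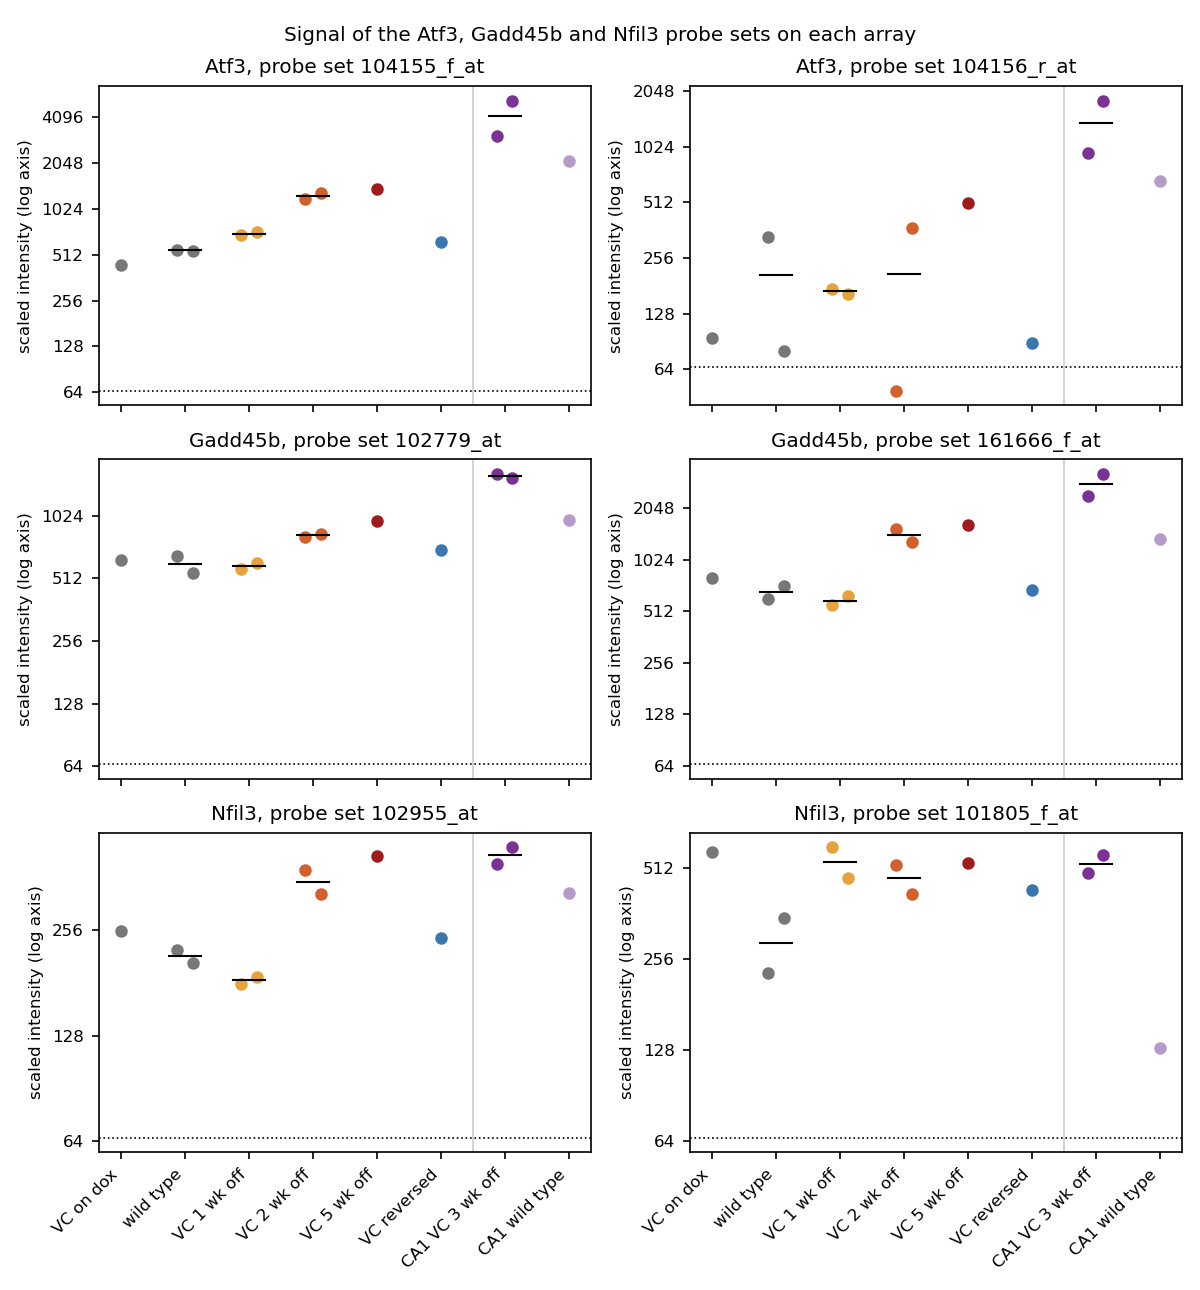
Scaled intensity (log2 axis) of the 6 tested probe sets on each of the 12 arrays; points are arrays, bars the mean of groups of 2, the dotted line the floor of 65.7, and the grey line separates hippocampus from CA1. Atf3 104155_f_at, both Gadd45b probe sets and Nfil3 102955_at step up between 1 and 2 weeks off dox, while Nfil3 101805_f_at and Atf3 104156_r_at show no such step.

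The Nfil3 probe sets did not behave alike. Probe set 102955_at read 255 in VC on dox and 225 and 207 in wild type, 180.1 and 188 at 1 week, 379 and 324 after 2 weeks and 415 after 5 weeks. Both 1-week arrays were the lowest of the 9 hippocampal arrays, and the 3 later ones the highest. The log2 difference was -0.31 ± 0.16 at 1 week, 0.62 ± 0.16 after 2 weeks and 0.87 ± 0.20 after 5 weeks. Probe set 101805_f_at read 579 in VC on dox and 231 and 349 in wild type, 601 and 476 at 1 week, 527 and 421 after 2 weeks and 532 after 5 weeks. Here the VC array on dox, whose transgene is silent, lay among the induced arrays, and only the wild-type arrays were lower. Its differences of 0.57 ± 0.34, 0.39 ± 0.34 and 0.56 ± 0.43 at 1, 2 and 5 weeks became 0.25, 0.07 and 0.24 without wild-type array 1, and 0.91, 0.73 and 0.91 without VC on dox. Of the 2 Nfil3 probe sets, 102955_at alone set the later induced arrays apart from the rest.

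Taken over the 3 arrays of 2 and 5 weeks, a grouping made with these values known, Atf3 104155_f_at averaged 1292 ± 97.7 against 512 ± 65.4 on the 3 never-induced arrays (SD, n = 3 each), a ratio of 2.52. Gadd45b 161666_f_at averaged 1496 ± 168 against 709 ± 98.1, a ratio of 2.11, and 102779_at averaged 872 ± 83.9 against 607 ± 56.8, a ratio of 1.44. Nfil3 102955_at averaged 373 ± 46.0 against 229 ± 24.2, a ratio of 1.63. On these 4 probe sets the 3 later arrays lay above all 6 other hippocampal arrays, a pattern that 3.14% of the tested probe sets showed. Above the 3 never-induced arrays alone it was again these 4 of 6 (6.14% of all tested), and above the 2 arrays of 1 week again these 4 (13.3%). Of the hippocampal arrays only that of 5 weeks had Nfil3 102955_at above its median, so its place in these counts is not independent of the filter. Atf3 104155_f_at alone of the 6 cleared the never-induced range on each of the 5 induced arrays (1.71%), and on both 1-week arrays (12.4%).

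In the induction comparisons in hippocampus, where the 3 genes carry no test, the share of all tested probe sets that passed an adjusted p of 0.05 in limma was 0.0283% for the induced arrays together, 0.0283% after 1 week, 0.156% after 2, 0.99% after 5 and 0.637% between 5 weeks and 1 week. With the 5 induced arrays pooled, the log2 difference from never-induced hippocampus was 0.99 ± 0.28 for Atf3 104155_f_at and 0.55 ± 0.36 for Gadd45b 161666_f_at. It was 0.30 ± 0.28 for Nfil3 102955_at and 0.29 ± 0.18 for Gadd45b 102779_at. Between 5 weeks and 1 week the order differed: Gadd45b 161666_f_at was 1.47 ± 0.26 higher at 5 weeks, Nfil3 102955_at 1.17 ± 0.21, Atf3 104155_f_at 0.98 ± 0.31 and Gadd45b 102779_at 0.72 ± 0.20. Whether the genes differ in their timing was not tested.

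**Figure D2:**
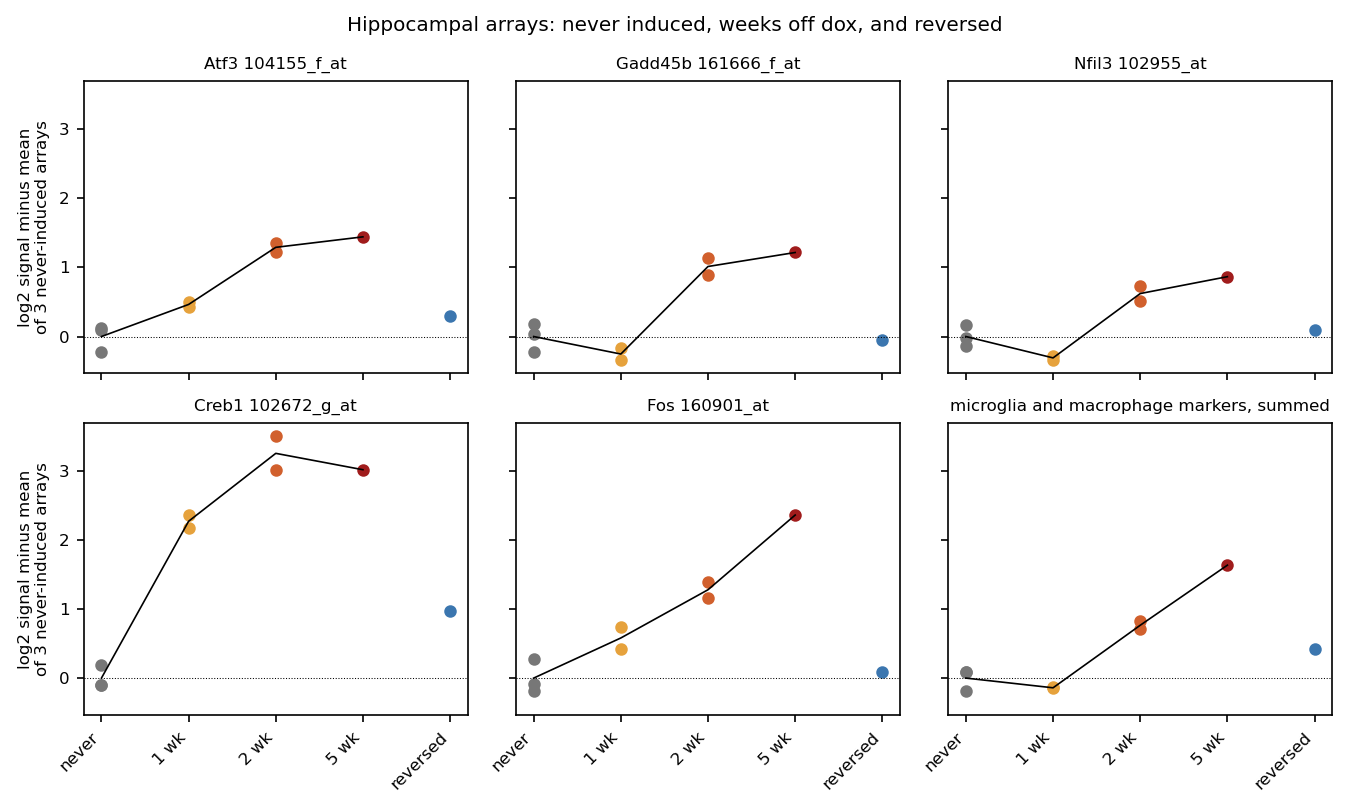
Log2 signal of hippocampal arrays relative to the mean of the 3 never-induced arrays, for 1 probe set of each gene, Creb1, Fos and the sum of 13 microglia and macrophage markers; points are arrays, the line joins means over time off dox, and the reversed array stands apart. Creb1 is already over 2 log2 units up at 1 week, whereas Gadd45b and Nfil3 are at or under 0 there.

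When the transgene had been on for 3 weeks and then silenced for 2 weeks, the 3 genes read lower than at 2 and 5 weeks by 4 of the 6 probe sets. Atf3 104155_f_at read 626 after reversal, against 437 in VC on dox and 554 and 546 in wild type. Gadd45b read 702 with 102779_at and 680.1 with 161666_f_at. Nfil3 102955_at read 243 and 101805_f_at 434. The reversed array was above the never-induced range for Atf3 104155_f_at and Gadd45b 102779_at, inside it for Gadd45b 161666_f_at and both Nfil3 probe sets, and under every array of 2 and 5 weeks for the 4 probe sets that were higher there. Of the log2 difference at 2 and 5 weeks, 22.2% was left for Atf3 104155_f_at, 40.9% for Gadd45b 102779_at, -4.65% for Gadd45b 161666_f_at and 13.5% for Nfil3 102955_at. The second Atf3 probe set read 89.3, within its never-induced spread.

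The reversed array was tested against the never-induced group, since this comparison sets no induced tissue against uninduced tissue. Which comparisons lay behind the choice of the genes is not known in full. The never-induced arrays are uninduced tissue of the kind used for that choice, so the p-values are not free of it. The log2 difference was 0.30 ± 0.44 for Atf3 104155_f_at, 0.21 ± 0.29 and -0.05 ± 0.57 for Gadd45b 102779_at and 161666_f_at, and 0.10 ± 0.44 and 0.27 ± 0.40 for Nfil3 102955_at and 101805_f_at. None of the 6 passed (adjusted p = 1.00 for each, limma), and of all tested probe sets 0% passed, with 180 at an unadjusted p under 0.05. The late log2 differences were 0.52 to 1.34 on the 4 probe sets that were higher at 2 and 5 weeks. With 1 reversed array and no call among all probe sets, a remainder up to that size was not detectable for any of the 4. Relative to the 5 induced arrays the reversed one read -0.69 ± 0.42 for Atf3 104155_f_at. For Gadd45b it read -0.08 ± 0.27 by 102779_at and -0.60 ± 0.54 by 161666_f_at. For Nfil3 it read -0.20 ± 0.42 by 102955_at and -0.23 ± 0.38 by 101805_f_at.

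A silent transgene made no difference that the test could call. VC hippocampus on dox differed from wild type by -0.33 ± 0.32 for Atf3 104155_f_at, by 0.07 ± 0.22 and 0.28 ± 0.27 for Gadd45b 102779_at and 161666_f_at, and by 0.24 ± 0.22 for Nfil3 102955_at (adjusted p = 1.00 for each, limma; 0% of all tested probe sets passed, 100 at an unadjusted p under 0.05). Nfil3 101805_f_at was 1.03 ± 0.32 higher on dox (unadjusted p = 0.013, adjusted p = 1.00, limma). Its VC array on dox read 579 and the wild-type arrays 231 and 349.

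**Figure D3:**
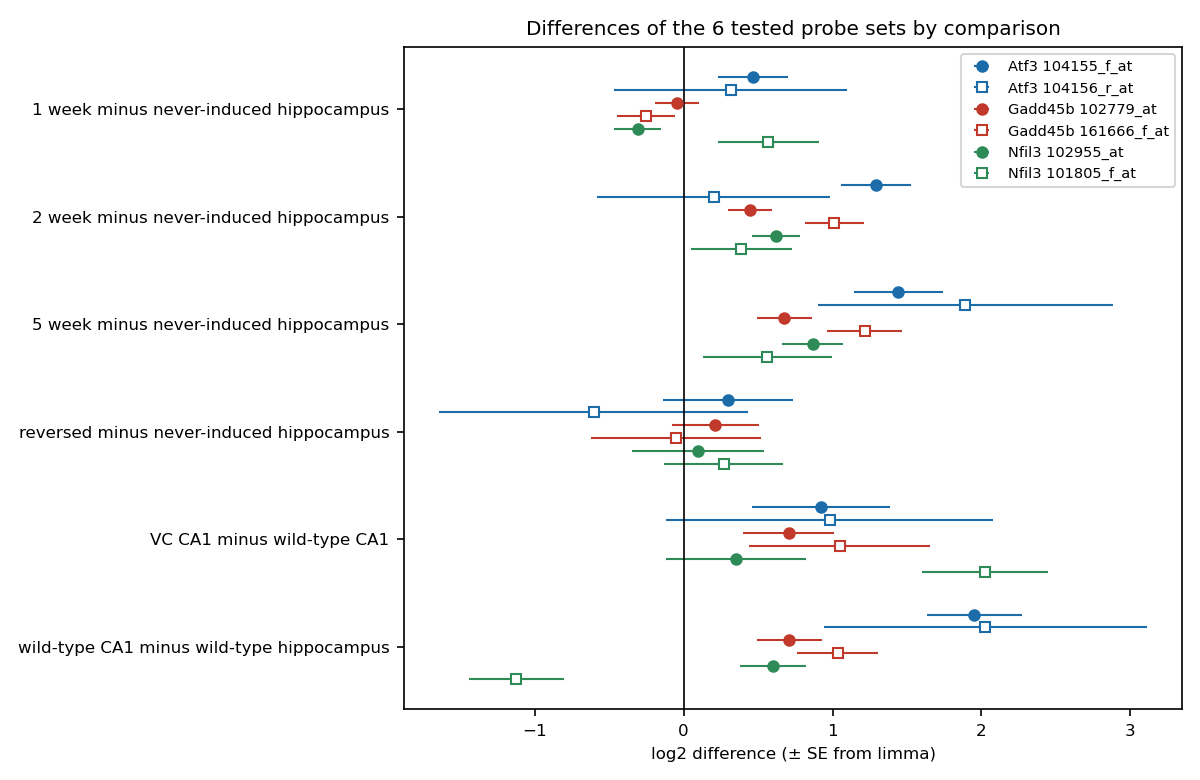
Log2 difference with its SE from limma for the 6 tested probe sets in 6 comparisons; filled circles and open squares are the 2 probe sets of a gene. The 2 Gadd45b probe sets lie on the same side of 0 in each comparison except after reversal, where both are within 1 SE of 0, while the 2 Nfil3 probe sets are opposed at 1 week and between the wild-type regions.

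In CA1 every one of the 6 probe sets was higher on both VC arrays than on the wild-type array, and 4 of them were also those with the later hippocampal arrays above the never-induced ones (3.99% of all tested probe sets showed both). Atf3 104155_f_at read 3081 and 5281 in VC CA1 and 2127 in wild-type CA1. Its second probe set 104156_r_at read 944 and 1815 in VC CA1 and 663 in wild-type CA1. Atf3 thus had its highest signals of the whole series in VC CA1, with an uneven pair of arrays: the log2 difference was 0.92 ± 0.47, and 1.31 without VC array 1 or 0.53 without VC array 2. Gadd45b 102779_at read 1623 and 1549 in VC CA1 and 973 in wild-type CA1, a difference of 0.71 ± 0.31. Gadd45b 161666_f_at read 2404 and 3252 in VC CA1 and 1353 in wild-type CA1, a difference of 1.05 ± 0.61. For both probe sets each VC array was above wild type, and 102779_at had the more even pair.

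Nfil3 102955_at read 395 and 440.4 in VC CA1 and 327 in wild-type CA1, a difference of 0.35 ± 0.47. Nfil3 101805_f_at read 494 and 569 in VC CA1 and 130.3 in wild-type CA1, a difference of 2.02 ± 0.42 or 4.07-fold. The size of the second difference comes from the wild-type CA1 array, which was the lowest of all 12 for that probe set, while its VC CA1 arrays were within the range of VC hippocampus. The pattern of 2 VC arrays above 1 wild-type array was shown by 29.4% of all tested probe sets, and the count of 6 of 6 is set against that share. In limma 0.467% of all tested probe sets passed in CA1, a comparison in which the 3 genes carry no test. The difference between the CA1 and the hippocampal effect was -0.07 ± 0.54 for Atf3 104155_f_at, 0.41 ± 0.36 for Gadd45b 102779_at, 0.50 ± 0.71 for Gadd45b 161666_f_at, 0.05 ± 0.55 for Nfil3 102955_at and 1.53 ± 0.49 for Nfil3 101805_f_at. Of all tested probe sets 0.0566% passed for this difference, again with no test of the 3 genes.

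The VC CA1 array on which Atf3 was highest was also high for other immediate early genes. Fos read 5967 and 12783 on VC CA1 arrays 1 and 2 and 6092 in wild-type CA1. Junb 102362_i_at read 3771 and 9583 in VC CA1 and 3679 in wild-type CA1, and Nr4a1 read 1899.5 and 5782 in VC CA1 and 2812 in wild-type CA1. Btg2 read 2668.5 and 8801 in VC CA1 and 3792 in wild-type CA1. For these genes VC array 1 was near or under wild type and VC array 2 far above it, whereas for Atf3 and Gadd45b both VC arrays were above wild type. The part of this array in the Atf3 result was not tested.

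The baseline differed between regions before any induction. Wild-type CA1 read 2127 for Atf3 104155_f_at and wild-type hippocampus 554 and 546, a log2 difference of 1.95 ± 0.32 or 3.87-fold (adjusted p = 0.0256, limma). This was the only call among the 6 probe sets, where 4.4% of all tested probe sets passed, 0.877% as higher and 3.52% as lower in CA1. It did not hold without a filter on dim signal (adjusted p = 0.0561), with the deposited scale as a block (adjusted p = 0.111), on deposited values (0.66, adjusted p = 0.645) or without any 1 of the wild-type, 1-week and 2-week arrays (adjusted p from 0.0511 to 0.111). The size itself held at 1.94 against wild-type array 1, the one hippocampal array that shares the deposited scale of CA1. Gadd45b was 0.71 ± 0.22 higher in wild-type CA1 with 102779_at (adjusted p = 0.103, limma) and 1.03 ± 0.27 higher with 161666_f_at (adjusted p = 0.0726, limma). Nfil3 was 0.60 ± 0.22 higher with 102955_at (adjusted p = 0.144, limma) and read -1.12 ± 0.32 with 101805_f_at (adjusted p = 0.0853, limma). The wild-type CA1 level rests on 1 array. The wild-type arrays are also uninduced tissue of the kind against which the genes were picked, so these p-values are not free of that choice.

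The 8 label groups can be ordered by their mean log2 signal. For Atf3 104155_f_at the order from low to high was VC on dox, wild type, reversed, 1 week, 2 weeks, 5 weeks, wild-type CA1 and VC CA1. Wild type, reversed and 1 week followed each other at steps within the pooled SD between arrays (0.28), as did 2 and 5 weeks, whereas the steps above VC on dox, 1 week, 5 weeks and wild-type CA1 were larger. For Gadd45b 161666_f_at the order was 1 week, wild type, reversed, VC on dox, wild-type CA1, 2 weeks, 5 weeks and VC CA1. There the step from wild-type CA1 to 2 weeks (0.07) and that from 2 to 5 weeks (0.20) were each within the SD of 0.21. For Nfil3 102955_at the order was 1 week, wild type, reversed, VC on dox, wild-type CA1, 2 weeks, 5 weeks and VC CA1, with a pooled SD of 0.11. There 3 steps were within that SD: reversed to VC on dox, wild-type CA1 to 2 weeks and 5 weeks to VC CA1. VC CA1 was at the top for these 3 and for Gadd45b 102779_at, but for Nfil3 101805_f_at the top was VC on dox and the bottom wild-type CA1.

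Over the 9 hippocampal arrays 4 of the 6 probe sets were correlated with each other, and Nfil3 101805_f_at and Atf3 104156_r_at much less so. The Pearson correlation of log2 signal was 0.96 between Gadd45b 161666_f_at and Nfil3 102955_at, 0.94 between Gadd45b 102779_at and Nfil3 102955_at, and 0.89 between the 2 Gadd45b probe sets. Atf3 104155_f_at correlated at 0.84 and 0.83 with the 2 Gadd45b probe sets and at 0.76 with Nfil3 102955_at. Nfil3 101805_f_at, which was above the array median more often than 102955_at, correlated at 0.26 with Atf3 104155_f_at and at 0.17 and 0.29 with the Gadd45b probe sets. The 2 Nfil3 probe sets correlated at only 0.21 and the 2 tested Atf3 probe sets at 0.45. These values describe 9 arrays that share their groups, and they carry no test.

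**Figure D4:**
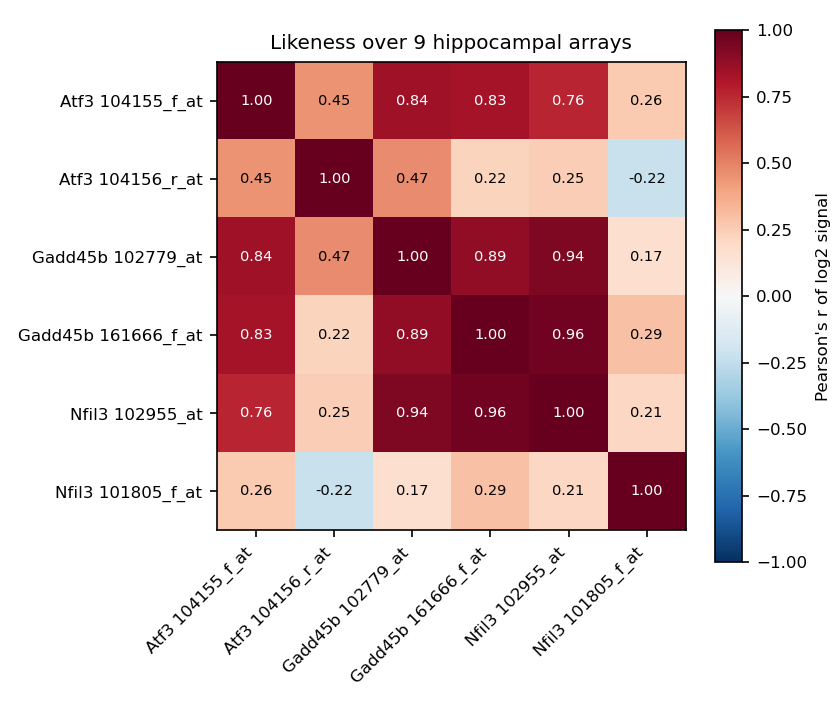
Pearson's r of log2 signal between the 6 tested probe sets over the 9 hippocampal arrays. The block of Gadd45b and Nfil3 102955_at holds values of 0.89 to 0.96, and Nfil3 101805_f_at has no r above 0.29 with any other.

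The 5 probe sets of other genes most like the brightest one of each gene over these arrays were looked up by the same correlation, with Atf3, Gadd45b and Nfil3 themselves left out of the lists. For Atf3 104155_f_at they were Cd52, a leukocyte surface glycoprotein (r = 0.957), Gm13205 (0.955), Bach1, a repressor of antioxidant genes (0.946), H2-Ab1, an MHC class II chain (0.946), and H2-K1, an MHC class I chain (0.943). For Gadd45b 161666_f_at they were Npc2, a lysosomal cholesterol carrier (0.971), the lysosomal protease Ctsd (0.959), Arhgdib (0.958), the astrocyte filament gene Gfap (0.958) and Cyba, a subunit of the phagocyte oxidase (0.953). Counted in, Nfil3 102955_at would stand at rank 2 for Gadd45b 161666_f_at (0.964), whereas for Atf3 104155_f_at the Gadd45b probe sets stand at ranks 78 and 86 and Nfil3 102955_at at 167. At 2 and 5 weeks the mean signal was 1.43 times the never-induced mean for Npc2, 3.69 times for Gfap, 3.90 times for Cd52 and 12.7 times for H2-Ab1, set beside 2.52 for Atf3 and 2.11 for Gadd45b. For Nfil3 the brightest probe set is 101805_f_at, and its nearest were Lef1 (0.879), A430005L14Rik (0.879), Usp3 (0.856), the cell cycle inhibitor Cdkn1a by 98067_at (0.842) and Dnajc3 (0.839). No gene is shared between any of the 3 lists.

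Sums of microglial and astrocyte markers were higher in hippocampus on the same later arrays as Gadd45b and Nfil3 102955_at. The 13 measured of 14 microglia and macrophage markers summed to 17061 to 20749.9 on the never-induced arrays, 17524 to 17725 at 1 week, 31763 to 34281 after 2 weeks and 60279 after 5 weeks. Of these markers 10 were tested, and 6 rose at 5 weeks (C1qa, C1qb, C1qc, Tyrobp, Ctss and Laptm5), calls that were lost under 1 (each C1q chain), 2 (Tyrobp, Laptm5) and 5 (Ctss) of 18 alternatives, deposited values among them each time. The 5-week level rests on 1 array, and a second tested C1qb probe set, 162276_i_at, was not higher on it. That probe set read 552 at 5 weeks and 564 to 726 on the never-induced arrays. Cx3cr1 of the same list did not rise in hippocampus. It read 842 to 1059 on the never-induced arrays, 752 and 942 after 2 weeks and 781 after 5 weeks. The sum was 25938.5 after reversal, and it was 65163 to 71249.7 in VC CA1 and 26629.6 in wild-type CA1. The sum did not leave the never-induced range at 1 week, when Gadd45b and Nfil3 102955_at were not higher either, but Atf3 104155_f_at was then 0.46 higher. Fcer1g was at the floor on 8 of the 12 arrays, and up to 3 markers of the list were at the floor on any array. The 8 astrocyte markers summed to 59526 to 66509 on the never-induced arrays, 53648 to 63926 at 1 week, 72201 to 89351 after 2 weeks and 94087 after 5 weeks. Their sum was 63321 after reversal, 49659 to 64882 in VC CA1 and 50387 in wild-type CA1. Of them Gfap rose at 2 and 5 weeks, the 2-week call being lost under 12 of 20 alternatives and the 5-week call under 1 of 18. The 7 oligodendrocyte markers summed to 37232 to 46008 on the never-induced arrays, 38372.5 to 44377.5 after 2 weeks and 40875 after 5 weeks. The 8 interneuron markers also summed higher on the later arrays, to 64572 to 67371 after 2 weeks and 66985 after 5 weeks. Their sum was 54233 to 59085 on the never-induced arrays, 50723 to 55083 at 1 week and 50711 after reversal. Sums of the 2 CA1 pyramidal genes were lower on the later arrays, 2850 to 3079 after 2 weeks and 2694 after 5 weeks. They were 3696 to 4017 on the never-induced arrays and 3652 to 3762 at 1 week. The 5 choroid plexus markers were highest at 1 week (14842 to 16131, against 5230 to 8018 on the never-induced arrays). The 5-week array was next, at 13052.5, also above the never-induced range. Their sum was 6483 to 10861 after 2 weeks and 4897 after reversal. The part of glia in the signals of Atf3, Gadd45b and Nfil3 was not tested.

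The wider pathways of the 3 genes were followed with 12 lists of 163 distinct genes, of which 94 were tested. At 5 weeks 2 of these passed, Creb1 and Fos, both higher, where 0.99% of all probe sets passed, and in VC CA1 1 passed, Creb1. Creb1 encodes CREB, and its probe set 102672_g_at read 48.1 in VC on dox and 55.0 and 80.3 in wild type, 316 and 362 at 1 week, 564 and 793 after 2 weeks and 567 after 5 weeks. It was at or near the floor before induction and well above it on every induced array. On the reversed array it read 138, above the never-induced range and under every induced array. Whether it reads the transgene itself was not tested. The other Creb1 probe sets differed. At 2 and 5 weeks the mean was 10.5 times the never-induced mean for 102672_g_at and 3.06 times for 102671_at. It was 1.05 times for 102673_at, which did not pass the filter. Before induction 102671_at read 202 in VC on dox and 201 and 82.1 in wild type. The log2 difference of 102672_g_at was 2.27 ± 0.25 at 1 week (adjusted p = 0.0365, limma), a call that was lost under 14 of 19 alternatives (adjusted p from 0.0134 to 0.868). It was 3.25 ± 0.25 at 2 weeks (adjusted p = 0.00206, limma) and 3.01 ± 0.31 at 5 weeks (adjusted p = 0.00414, limma), lost under 1 of 19 and 2 of 17 alternatives. The call in VC CA1 was lost under 5 of 18. Fos, a partner of JUN factors in AP-1 dimers, read 1030.0 in VC on dox and 959 and 1332 in wild type. It read 1469 and 1828 at 1 week, 2454 and 2878 after 2 weeks and 5620.3 after 5 weeks. Its difference at 5 weeks was 2.36 ± 0.39 (adjusted p = 0.0282, limma), lost under 11 of 18 alternatives (adjusted p from 0.00371 to 0.744).

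Among the other 5 tested genes of the ATF and CREB family, none passed at 5 weeks, and the median log2 difference of the list was 0.14, 3 of 6 genes (Creb1 included) being positive, against -0.03 and 46.3% positive over all probe sets. Atf4, which drives Atf3 in the integrated stress response, read 5200.1 at 5 weeks and was 4655 to 6104 over all 9 hippocampal arrays. Of the 13 tested stress response genes none passed in limma, 11 were positive and the median was 0.08. Ddit3, a classical stress target, read 1138 at 5 weeks but also 1147 in VC on dox. Of 7 Fos, Jun and Maf partners 6 were positive with a median of 0.44, and besides Fos none passed.

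Around Gadd45b, 0 of 10 growth arrest and p53 target genes passed at 5 weeks, 9 were positive and the median was 0.32. Cdkn1a, the p53-dependent cell cycle inhibitor, read 530.4 in VC on dox and 412 and 447 in wild type, 427 and 345 at 1 week, 731 and 562 after 2 weeks and 609.7 after 5 weeks with 94881_at. Its 3 later arrays lay above the other 6, as for Gadd45b 102779_at, but the lowest of them was close to VC on dox. Its second probe set, 98067_at, read 463 in VC on dox and 132.5 and 208 in wild type, 589 and 647 at 1 week, 738 and 274 after 2 weeks and 781 after 5 weeks, and gave no such split. The relatives of Gadd45b did not have all 3 later arrays above the never-induced ones: Gadd45a read 151 and 296 at 2 weeks and 482 at 5 weeks, against 259.6 to 349 on the never-induced arrays, and Gadd45g read 974 and 1337 at 2 weeks and 1249.6 at 5 weeks, against 1009.8 to 1050.0. In CA1 both were higher on each VC array, as Gadd45b was: Gadd45a read 407.5 and 373 in VC CA1 and 231.5 in wild-type CA1, and Gadd45g 2086 and 2392 in VC CA1 and 1183 in wild-type CA1. The difference between these genes and Gadd45b was not tested. Of 7 kinase pathway genes 1 was positive, with a median of -0.10, and of 6 DNA methylation and demethylation genes none was, with a median of -0.15. Map3k4, the kinase that GADD45 proteins bind, read 630.3 at 5 weeks, within its never-induced range of 425 to 846.

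Around Nfil3, 0 of 14 D-box and clock genes passed at 5 weeks, 8 were positive and the median was 0.09. Tef, an activator at the D-box, read 6919.5 in VC on dox and 5639 and 5368 in wild type, 3158 and 3876 at 1 week, 5510.0 and 4569 after 2 weeks and 4364.5 after 5 weeks. It was lowest at 1 week, when Nfil3 102955_at was lowest too, and at 5 weeks it was under its never-induced range while Nfil3 102955_at was above its own. Dbp, the other measured D-box activator, read 939.7 at 5 weeks and 686 to 865 on the never-induced arrays. Per1, a clock gene and CREB target, read 2054 at 5 weeks and 1307 to 1512 on the never-induced arrays. None of these 3 genes passed.

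Several other lists hold genes known to be induced together with the members. Of 5 activity-regulated neuroprotective genes, a set to which Atf3 and Gadd45b also belong, none passed at 5 weeks, and all 5 were positive with a median of 0.43. Nr4a1 read 3054 and Btg2 3858 at 5 weeks, against 1455 to 2060 and 1688 to 2445 on the never-induced arrays. Of 10 injury and regeneration genes 6 were positive (median 0.07), of 10 NF-kB and cytokine targets 4 (median -0.03), of 10 TGF-beta genes 7 (median 0.08) and of 3 C/EBP genes 3 (median 0.39), with no call. In VC CA1 the NF-kB list had a median of 0.96 with 9 of 10 positive and the growth arrest list 0.66 with 8 of 10, against -0.02 with 47.9% positive over all probe sets, and no gene of either passed. Nfkbia, the NF-kB inhibitor, read 3115 and 7805 in VC CA1 and 2587 in wild-type CA1, with the same uneven pair as Fos. After reversal no list gene passed in either comparison.

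**Figure D5:**
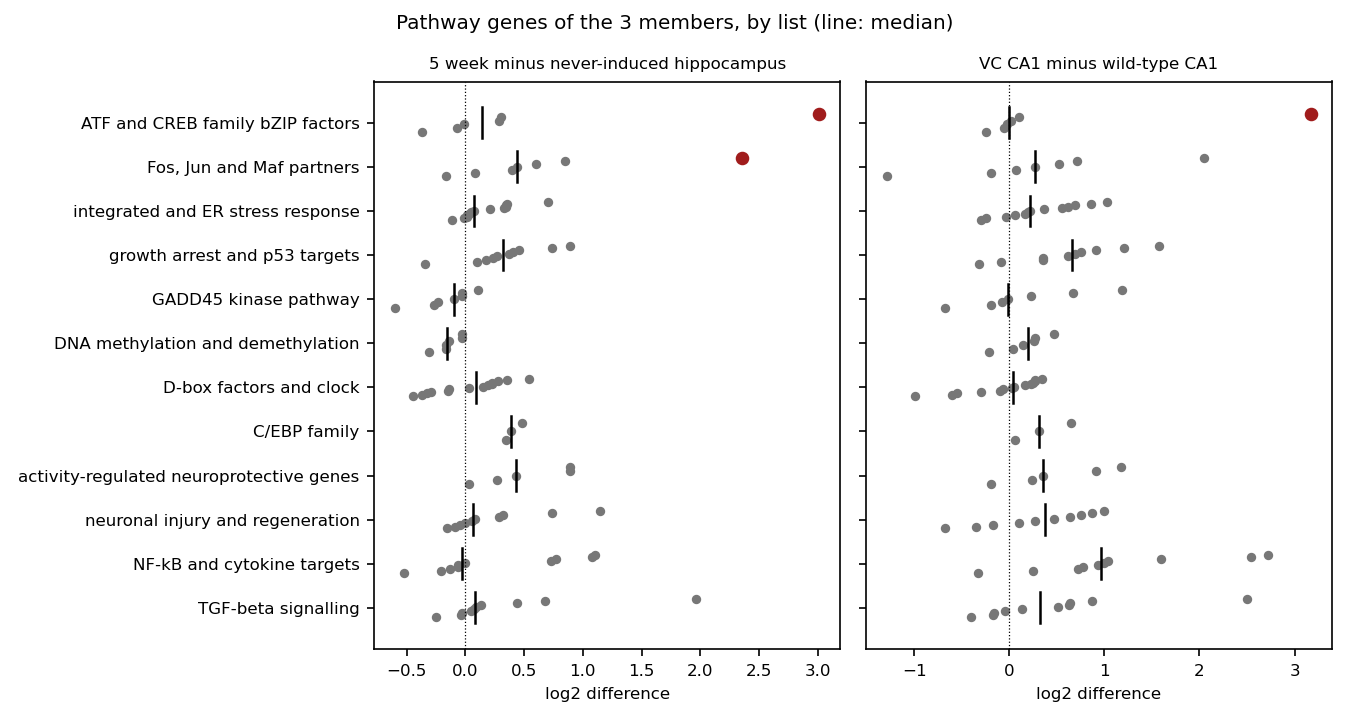
Log2 differences of the tested genes of 12 lists around the 3 genes at 5 weeks off dox against never-induced hippocampus and in VC against wild-type CA1; points are genes (brightest probe set), large red points passed limma at an adjusted p of 0.05, and bars are list medians. Creb1 passes in both panels and Fos at 5 weeks.

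Between wild-type CA1 and wild-type hippocampus 5 of the 94 tested list genes passed, near the 4.4% of all tested probe sets, and each of these calls was lost under 4 to 10 of 15 or 16 alternatives, Atf4 and Nr1d1 also changing sign on deposited values. Fos (2.43 ± 0.44, adjusted p = 0.0316, limma) and Atf4 (1.12 ± 0.21, adjusted p = 0.0346, limma) were higher in CA1 together with Atf3. Socs3, an inhibitor of cytokine signalling, read 1074 in wild-type CA1 with 92232_at and 21.1 to 55.0 in all 9 hippocampal arrays, under the floor there, a log2 difference of at least 4.03 with the floor in their place (adjusted p = 0.0126, limma). Its other probe set, 162206_f_at, read 546.5 in wild-type CA1 and 67.4 to 182 in hippocampus, a difference of 1.81 ± 0.41 that did not pass (adjusted p = 0.0546, limma). Nr1d1 was higher as well (1.21 ± 0.21, adjusted p = 0.0300, limma), and Relb was lower (-1.50 ± 0.23, adjusted p = 0.0237, limma). By their brightest probe sets Atf3, Fos, Junb and Nfkbia all read higher on each CA1 array than on any hippocampal array, VC or wild type. On the 3 CA1 arrays against the 9 hippocampal ones, both tested Atf3 probe sets and Gadd45b 102779_at did not overlap (7.61% of all tested probe sets lay higher in this way), and none of the 6 lay wholly lower (16.8%). Atf3 104156_r_at was above the array median on the 3 CA1 arrays and, in hippocampus, only on the array longest off dox. It passed the filter through the CA1 arrays, so its place in this count is not independent of the filter.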

How the data were processed

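RNA from 9 pools of mouse hippocampus and 3 samples of microdissected CA1 was hybridised to 1 Affymetrix MG-U74Av2 array each. The deposited values are probe set intensity on a linear scale; the software was GCOS, per the submitters' processing notes, and the sources used here name no expression algorithm or scaling. Samples were grouped by their titles. Each array was rescaled to a mean of 1000 after trimming 2% from each end, floored at the 20th percentile of scaled values (65.7) and put on the log2 scale. Probe sets above the median of their own array on at least 2 arrays were tested, 7069 of 12422, after 66 controls were left out of 12488. The annotation (2016) gave 10833 probe sets 1 symbol, 396 several and 1193 none. Two-sided tests were made with R 4.3.3 and its package limma 3.58.1 (lmFit and eBayes; Benjamini-Hochberg adjustment, threshold 0.05), with 5 levels for pooled induction, reversal and CA1, 7 for times and 8 for wild type against VC on dox and between regions. A level of 1 array was taken to vary like the others. The fit was tested on simulated data.

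The members, the gene lists and the comparisons were chosen with earlier results of these data known. Named genes were every member probe set, partner genes marked in the lists, list genes past the threshold, and, leaving out the members, the 5 probe sets with the highest Pearson correlation to the brightest probe set of each member. A gene in a list was represented by its brightest tested probe set. Numbered arrays of different groups did not deviate together (r from -0.10 to 0.04 over 7069 probe sets), so replicate numbers were not used to pair samples. Alternatives changed the scaling, floor, filter, block, eBayes settings, levels and arrays, one at a time. The number of arrays limits the precision, and detection calls were not used here.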

Additional observations from a re-analysis of the deposited data

How the results depend on the processing

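Of 1202 recomputed differences of the 6 tested probe sets, 1071 moved by less than the probe set's spread between arrays or kept a call. A further 122 moved more, and 9 lost a call (all Atf3 104155_f_at between the wild-type regions). The 1071 does not measure robustness, since filter, eBayes settings and arrays outside a comparison cannot change a difference of means. A reversed call was possible only for that Atf3 comparison, and there were 0. Elsewhere the sign changed, among other cases, under 6 of 18 alternatives for Nfil3 102955_at in the difference of effects. In that difference it also changed under 4 of 19 for Atf3 104155_f_at and 5 of 18 for Atf3 104156_r_at. For reversed against never-induced it changed under 3 of 21 for Gadd45b 161666_f_at and 3 of 21 for Nfil3 101805_f_at. It changed under 5 of 20 for Gadd45b 102779_at at 1 week and 4 of 16 for Atf3 104156_r_at (SD 1.19) at 2 weeks. Leaving aside deposited values, where the unequal scales of the arrays enter directly, the 2-week log2 difference ran from 1.18 to 1.36 for Atf3 104155_f_at, from 0.37 to 0.50 and from 0.89 to 1.13 for Gadd45b 102779_at and 161666_f_at, and from 0.51 to 0.74 for Nfil3 102955_at. Between the wild-type regions Atf4 and Nr1d1 changed sign on deposited values (-0.172 and -0.0859). Counts over all probe sets depended more on the processing. On deposited values limma called 5 for the induced arrays, 0 at 1 week, 2 at 2 weeks, 2 at 5 weeks, 1 for 5 weeks against 1 week, 0 in VC CA1, 0 for the difference of effects, 1 for reversed against induced and 0 between the wild-type regions. Without a filter it called 0 for the induced arrays, 5 at 1 week, 6 at 2 weeks, 292 in VC CA1, 228 for the difference of effects, 45 and 43 for reversed against induced and never-induced, and 27 on dox. The filter on 6 arrays gave 1 (induced), 1 (1 week), 7 (2 weeks) and 29 (5 weeks against 1 week). Quantile normalization gave 0 at 1 week, 8 for the difference of effects and 163 between regions. The floor at the 10th percentile gave 0 at 1 week, and that at the 40th gave 0 for the induced arrays, 0 at 1 week, 0 in VC CA1, 0 for the difference of effects and 192 between regions. The deposited scale as a block gave 0 (induced), 1 (1 week), 3 (2 weeks), 18 (VC CA1), 0 (difference of effects) and 7 (regions), and the higher-scale arrays alone 0 (induced) and 18 (2 weeks). Trend and robust settings gave 1 at 1 week, 14 in VC CA1 and 2 for the difference of effects. With 7 levels 9 were called for the induced arrays, 89 in VC CA1, 8 for the difference of effects and 3 for reversed against induced. Replicate numbers did not pair the samples; the replicate block over the numbered hippocampal arrays gave 4 calls at 1 week and 7 at 2 weeks, and the same arrays without the block, an alternative chosen after seeing the data, gave 2 at 2 weeks. Leaving out 1 array at a time gave 0 to 2 calls for the induced arrays, 0 to 2 at 1 week, 2 to 24 at 2 weeks, 40 (without VC on dox) to 90 at 5 weeks, 3 (without 1-week array 1) to 66 for 5 weeks against 1 week, 7 (without wild-type array 2) to 143 (without VC array 1) in VC CA1, 0 to 30 for the difference of effects, 0 to 3 for reversed against induced, and 7 (without wild-type array 2) to 1089 (without VC CA1 array 1) between regions. No cause was tested.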
